A study of Mus musculus with 28 samples.

Results

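Collagen genes were followed in the livers of wild-type (WT) mice and of mice carrying a SIRT6 transgene (SIRT6-tg). Every entry of the liver count table was taken whose Ensembl identifier carries a symbol made of Col, a chain type number, the letter a and a chain number, which gave 44 of 49585 entries. They were read in 3 classes: 11 fibrillar chains (types I, II, III, V, XI, XXIV and XXVII), 8 basement membrane chains (types IV, XV and XVIII) and 25 other chains. Messenger RNA was sequenced from 28 livers, 1 library per mouse, with 7 libraries of each sex and genotype. All mice were of the C57BL/6JOlaHsd strain, were 5 to 7 months old per the labels, were kept on standard chow and were fasted for some hours before the liver was taken. The SIRT6-tg mice of both sexes came from 1 transgenic line that overexpresses SIRT6 in the whole body, and the promoter of that transgene is not given in the sources used here. The labels give no other allele or treatment. The study compared the genotypes within each sex, and the size of the genotype effect between the sexes.

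Collagens are secreted proteins built of 3 chains wound into a triple helix, and the Col genes each encode 1 chain. Types I, III and V assemble into the banded fibrils that give tissue its tensile strength, type IV forms the sheet-like network of basement membranes, type VI forms beaded filaments around cells, and the fibril-associated types sit on the surface of fibrils. In the liver the fibrillar chains are made mainly by hepatic stellate cells, the retinoid-storing pericytes of the sinusoid, and by portal fibroblasts, and they accumulate in fibrosis. Type XVIII is unusual in that hepatocytes make it too, and its C-terminal fragment is endostatin. SIRT6 is a nuclear NAD-dependent deacylase of the sirtuin family.

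Sirt6 itself was counted at 44.8 to 85.9 normalized counts in male WT and at 5263 to 9517 in male SIRT6-tg, and at 47.9 to 165 in female WT and 434 to 1335 in female SIRT6-tg, so every library matched its genotype label and the male and female SIRT6-tg ranges did not overlap. A normalized count is a library's read count for a gene after scaling all libraries to 1 effective size by the trimmed mean of M values (TMM), and it is not corrected for gene length. Library totals ran from 18758863 to 35393069 counted reads. The hepatocyte genes Alb, Apoa1 and Ttr and the stellate cell genes Lrat, Des, Reln and Hand2 were above 0 in all 28 libraries. The scaling factors were 1.062 to 1.174 in male WT and 0.8209 to 0.9928 in male SIRT6-tg without overlap, so the TMM step moved the male differences upward: with total counts alone as the scale, the median log2 difference between male SIRT6-tg and male WT over all genes tested was -0.22 and not 0.06. 4 libraries stood apart from their groups in a pair of the better-counted collagen genes each. Male WT 5 was the lowest of its group for Col1a1 and Col1a2, male WT 6 for Col15a1 and Col18a1, and female WT 1 was the highest of its group for Col1a2 and Col5a2, with 479 normalized counts of Col5a2 against 73.0 to 143 in the other female WT livers. Male SIRT6-tg 6 was the lowest of its group for Col27a1 and the highest for Col6a2, and without it the male log2 fold changes of these genes were 1.16 and -1.35, further from 0 than with it. The counts of collagen genes called with the 3 WT libraries left out together are given beside the main counts, an alternative added after seeing the data. Male WT 3 stood apart in genes of other tissues, with 86 reads of the adipocyte gene Adipoq, 65 of Plin1 and 45 of the pancreatic gene Ctrb1, where no other male library had more than 3, 1 and 1.

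Of the 44 collagen genes, 39 reached a mean of 0.5 normalized counts over the 28 libraries, the study's definition of an expressed gene, and were tested: 9 of 11 fibrillar, all 8 basement membrane and 22 of 25 other chains. The 5 that did not were Col2a1 and Col11a1, fibrillar chains of cartilage, and Col9a1, Col19a1 and Col26a1. Their highest library reached 2.35 normalized counts, so these genes were at the limit of this depth and are not described further. Because the mean was taken over all groups, a gene could pass through 1 group alone. Col28a1 did so through male WT, with means of 1.56 normalized counts there, 0 in male SIRT6-tg, 0.456 in female WT and 0.316 in female SIRT6-tg.

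Per kb of exon, which allows genes to be compared with each other, 1 chain made up most of the collagen counts in the liver. The length was that of all annotated exons of a gene joined, such as 12426 bases for Col1a2 and 6563 for Col1a1. The order of genes and the shares therefore depend on which isoforms are annotated. Col18a1, on chr10:77052178-77166548 (GRCm38, here and below), averaged 3074 normalized counts per kb in male WT and 3545 in male SIRT6-tg, and 3344 and 3386 in the WT and SIRT6-tg females. Its median share of the summed per-kb count of all collagen genes was 67.7% in male WT, 80.7% in male SIRT6-tg, 78.6% in female WT and 80.5% in female SIRT6-tg. The male ranges, 58.0 to 76.9% and 79.5 to 82.6%, did not overlap, while the female ranges did. Behind it in male WT came the fibril-associated chain Col14a1 with 277, Col3a1 with 202, Col4a1 with 158, Col5a3 with 144, Col4a2 with 108 and Col1a1 with 105 normalized counts per kb. In the per-kb level of male SIRT6-tg livers this order changed, with Col5a3 at 157, Col27a1 at 79.0, Col3a1 at 45.2 and Col1a1 at 13.2.

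The fibrillar class as a whole took a median of 14.7% of the per-kb collagen sum in male WT, with a range of 8.58 to 18.5%, and 7.86% in male SIRT6-tg, with a range of 7.06 to 8.92%. In females its median share was 5.74% in WT and 5.44% in SIRT6-tg, with ranges of 4.78 to 12.1% and 4.31 to 7.54%. Summed per kb, all 11 fibrillar chains ran from 406.1 to 771.4 (median 671.6) in male WT and from 281.9 to 428.9 (median 354.3) in male SIRT6-tg. Those ranges overlapped. A narrower sum left out Col27a1 and Col5a3 because they did not fall in males in these same data, so it does not test the class. Without these chains the summed per-kb level of the fibrillar class was 244.5 to 600.0 (median 420.3) in male WT and 88.0 to 128 (median 108) in male SIRT6-tg, and those ranges did not overlap. In females the same sum was 141 to 362 (median 204) in WT and 143 to 242 (median 178) in SIRT6-tg, all of them above the male SIRT6-tg libraries. The sum of all collagen genes did not separate the groups, since it followed Col18a1: its range was 2873 to 4930 in male WT and 3292 to 5213 in male SIRT6-tg.

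**Figure D1:**
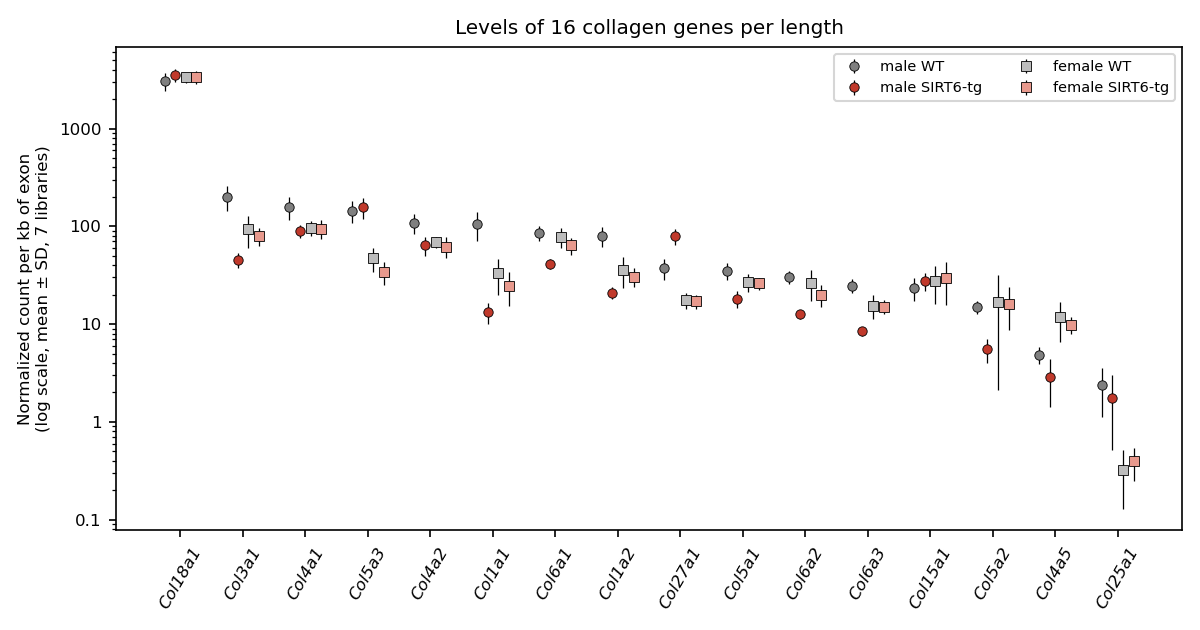
Levels of 16 collagen genes in the 4 groups, as mean normalized counts per kb of exon on a log scale with the SD over 7 libraries, ordered by the male WT mean. Col18a1 lies at 3074 to 3545 in every group, far above each of the other genes, and Col1a1 and Col3a1 show the widest gaps between male WT and male SIRT6-tg.

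The sequences before the start sites of a few chains are shown as examples of a fibrillar chain that fell far in males, of one that fell less and of the one that rose. They are RefSeq promoters of GRCm38.p6, 250 bases up to the base before the annotated start, 5′ to 3′ on the gene's strand, with capitals marking TATAAA, or GGGCGG and its reverse complement CCGCCC. Col3a1 and Col5a1 fell in male SIRT6-tg livers and Col27a1 rose, and all 3 lie on the plus strand. Col1a1 was not matched in the set of RefSeq promoters used here, so its promoter is not shown. The promoter of Col27a1 is that of the RefSeq start, which lies inside the longer gene of the Gencode annotation.
Col3a1, chr1:45311288-45311537: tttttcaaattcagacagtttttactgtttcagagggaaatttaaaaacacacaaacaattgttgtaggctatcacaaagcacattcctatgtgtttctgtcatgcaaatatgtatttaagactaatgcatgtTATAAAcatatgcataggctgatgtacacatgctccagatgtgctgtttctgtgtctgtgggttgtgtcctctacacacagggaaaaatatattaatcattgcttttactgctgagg
Col5a1, chr2:27886175-27886424: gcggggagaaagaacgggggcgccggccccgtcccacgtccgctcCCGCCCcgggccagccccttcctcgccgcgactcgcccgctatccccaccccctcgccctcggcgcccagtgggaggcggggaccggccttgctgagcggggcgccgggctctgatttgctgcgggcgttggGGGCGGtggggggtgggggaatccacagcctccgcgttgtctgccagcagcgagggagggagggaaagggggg
Col27a1, chr4:63215162-63215411: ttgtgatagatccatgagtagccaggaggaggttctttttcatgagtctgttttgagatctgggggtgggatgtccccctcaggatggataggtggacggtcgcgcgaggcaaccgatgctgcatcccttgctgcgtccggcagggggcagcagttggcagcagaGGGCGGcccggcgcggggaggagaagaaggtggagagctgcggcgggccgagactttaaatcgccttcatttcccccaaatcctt
Col3a1 holds TATAAA and no GGGCGG, and Col5a1 and Col27a1 hold GGGCGG and no TATAAA. Among other chains that fell, Col1a2 holds GGGCGG without TATAAA, Col11a2 holds both and Col6a3 holds neither. Whether a motif goes with the direction or size of a change was not tested. Over windows of 300 bases, which add 50 bases after the start, this set held a promoter for 35 of the 44 collagen genes, 3 of them with a pair of starts. On either strand, TATAAA stood in 5 of the 35, against 13.6% of 32851 mouse promoters of that length, CCAAT in 13 against 37.4%, and GGGCGG in 22 against 35.7%. A collagen gene was counted if any of its starts held the motif, while the percentages are of single promoters. A match is a run of letters and was not tested as a site.

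In males, 15 of the 39 collagen genes tested fell in SIRT6-tg livers and 1 rose, at an adjusted p under 0.05 in edgeR's quasi-likelihood test across all 21583 genes tested. Over all genes tested, 11.0% were called lower and 9.68% higher in the same comparison. The median log2 fold change of the collagen genes was -0.61, against 0.06 over all genes. With the 3 WT libraries that stood apart left out, 16 genes were called again, 15 of them the same. Without male WT 3, 13 of 38 tested fell and 1 rose, since Col28a1 no longer passed the filter and Col6a5 was no longer called, and Col1a1 (log2 fold change -2.96 ± 0.285, adjusted p = 5.08e-08) and Col3a1 (-2.14) stayed close to their values with all libraries. Col28a1 passed the filter only through the group in which it was highest, and 14 of the other 38 fell. 11 collagen genes were lower in every male SIRT6-tg library than in every male WT library and 0 were higher in every one, while 4.37% and 2.60% of all genes tested separated in these directions. In whole liver RNA, fewer cells of a type and less of a transcript per cell cannot be told apart, and this holds for every difference that follows.

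The fibrillar class had the lowest median of the 3 in males: 6 of 9 fell, 1 rose and 2 were not called, at a median log2 fold change of -0.95. Col1a1, the α1 chain of type I collagen (chr11:94936224-94953042), was counted at 299 to 989.5 (median 650.0) normalized counts in male WT, 53.5 to 106.5 (median 85.6) in male SIRT6-tg, 108 to 375 (median 212) in female WT and 87.4 to 243 (median 166) in female SIRT6-tg. Every male SIRT6-tg liver lay below every male WT liver, while the female groups overlapped along most of their range. Col1a1 was 7.95-fold lower in male SIRT6-tg (log2 fold change -2.99 ± 0.28, adjusted p = 1.66e-08). Col1a2 (chr6:4504814-4541544), the α2 chain that joins 2 α1 chains in each type I molecule, ran from 575 to 1253 (median 953) in male WT and from 212 to 300.3 (median 265) in male SIRT6-tg. It was 3.79-fold lower (log2 fold change -1.92 ± 0.18, adjusted p = 1.34e-08), also without overlap, a smaller fold than that of its partner chain.

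Col3a1 (chr1:45311538-45349706), whose type III homotrimers mix with type I in the fibrils of distensible tissue, was counted at 1061 to 2742 (median 1840) in male WT and 362 to 576 (median 432) in male SIRT6-tg. The male groups did not overlap, and the male SIRT6-tg range met only the low end of the female WT range of 499.8 to 1587 and lay below that of female SIRT6-tg, 579.5 to 1057. The fold was 4.46 lower (log2 fold change -2.16 ± 0.20, adjusted p = 1.87e-08). Part of a Col3a1 exon is shared with the gene model Gm47302 on the same strand, so a read there could not be assigned to either by position.

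The type V chains, which sit in the core of type I fibrils and limit their width, did not move together. Col5a1 (chr2:27886425-28039514) was counted at 223 to 378 (median 299.5) in male WT and 113 to 187 (median 158) in male SIRT6-tg and was 1.94-fold lower (log2 fold change -0.95 ± 0.15, adjusted p = 1.21e-05). Col5a2 (chr1:45374321-45503282) went from 125 to 175 (median 138) to 30.9 to 72.1 (median 56.02) and was 2.75-fold lower (log2 fold change -1.46 ± 0.34, adjusted p = 0.00227). The male ranges of both chains were apart. Col5a3 (chr9:20770050-20815067) was at 659 to 1408 (median 892) in male WT and 772 to 1506 (median 1138) in male SIRT6-tg, overlapping ranges, with a log2 fold change of 0.13 ± 0.18 and a 95% interval of -0.24 to 0.49. Col11a2, a minor fibril chain, was low, at 27.4 to 49.25 in male WT and 14.7 to 29.9 in male SIRT6-tg, and fell (log2 fold change -0.84 ± 0.21, adjusted p = 0.0039). Opposite-strand gene models overlap exons of Col5a1, and the library kit keeps no strand, so reads of those stretches cannot be told apart.

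Col27a1 (chr4:63214004-63334991), a fibrillar chain of the cartilage-associated type XXVII, went the other way and was the 1 collagen gene called higher. It was counted at 389 to 720.4 (median 422) in male WT and 651 to 1200 (median 1102) in male SIRT6-tg. The ranges overlapped only through male SIRT6-tg 6, the lowest of its group at 651, which lay under the highest male WT liver. The difference was 2.13-fold (log2 fold change 1.09 ± 0.14, adjusted p = 1.56e-06), and it stayed positive under every alternative run, between 0.81 and 1.19 on the log2 scale. Female levels, 173 to 289 in WT and 171 to 269 in SIRT6-tg, were below all male WT livers. Col24a1, the other chain of this fibrillar subgroup, stayed near 9.19 ± 3.625 (SD, n = 7) in male WT and 8.57 ± 3.605 in male SIRT6-tg and was not called (log2 fold change -0.08 ± 0.33, adjusted p = 0.904).

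**Figure D2:**
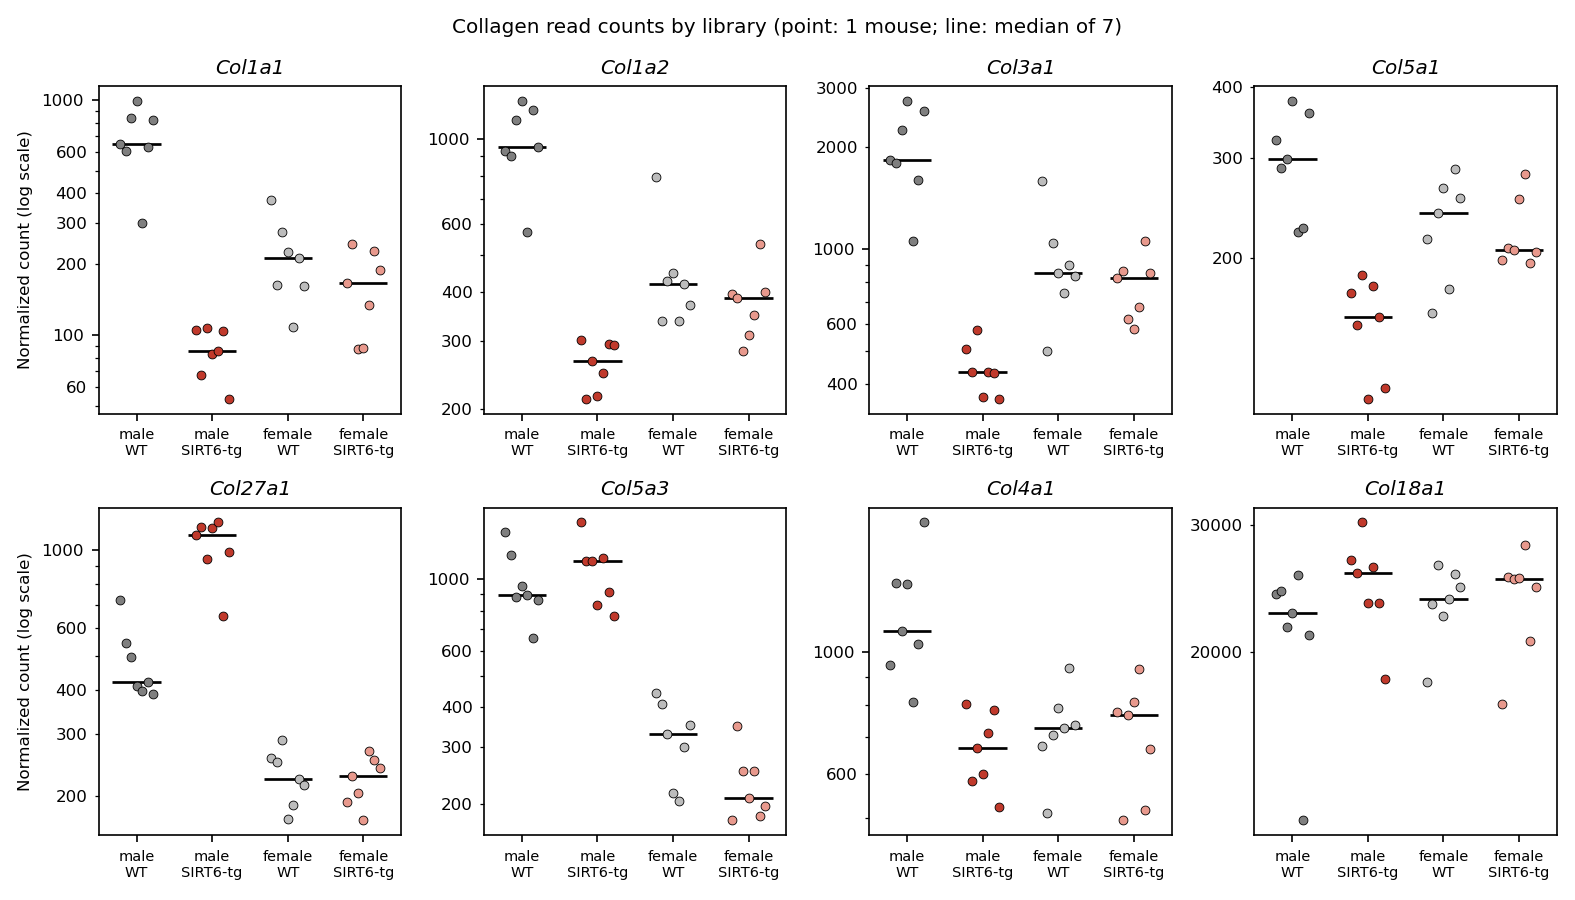
Normalized counts of 8 collagen genes in each library on a log scale, 1 point per mouse and a line at the median of 7. The male SIRT6-tg points of Col1a1 (53.5 to 106.5), Col1a2, Col3a1, Col5a1 and Col4a1 lie below all male WT points, those of Col27a1 lie higher with 1 exception, and the groups overlap for Col5a3 and Col18a1.

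Among the 8 basement membrane chains 2 fell in males, the paired chains of the common type IV network, and the median log2 fold change was -0.48. Col4a1 and Col4a2 are transcribed away from each other on chromosome 8 from a shared promoter, and their proteins join as 2 α1 chains and 1 α2 chain. Their annotated first exons overlap by 22 bases, chr8:11312805-11312826. That stretch, in which an unstranded read belongs to both, is printed on the strand of Col4a2. It is shown without capitals, although it holds GGGCGG.
Col4a1 and Col4a2: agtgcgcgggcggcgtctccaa
Col4a1 (chr8:11198423-11312826) was counted at 812 to 1717 (median 1092) in male WT and 523 to 805 (median 669.5) in male SIRT6-tg, without overlap. Col4a2 (chr8:11312805-11449287) was at 489 to 926 (median 731) in male WT and 246.5 to 516 (median 450.0) in male SIRT6-tg, where the highest SIRT6-tg liver exceeded the lowest WT liver. The folds were 1.77 lower for Col4a1 (log2 fold change -0.82 ± 0.15, adjusted p = 0.000202) and 1.69 lower for Col4a2 (log2 fold change -0.76 ± 0.16, adjusted p = 0.000888). They differed by less than the standard error of either.

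The remaining type IV chains belong to the networks of kidney, lung and other specialised basement membranes and were scarce in liver. Col4a3 and Col4a4, another divergent pair, were counted at 13.8 to 34.7 and 6.72 to 28.3 in male WT and at 12.0 to 25.4 and 11.95 to 16.9 in male SIRT6-tg, and were not called (log2 fold changes -0.12 and -0.23). Col4a5, on the X chromosome (chrX:141475385-141689234), was at 23.7 to 39.1 (median 35.39) in male WT and 8.25 to 38.6 (median 17.7) in male SIRT6-tg. It missed the threshold (log2 fold change -0.74 ± 0.29, adjusted p = 0.0658) but passed it with upper-quartile scaling, with library size alone and in DESeq2. Col4a6, its neighbour, was at 0.658 to 11.5 in male WT and 0 to 5.635 in male SIRT6-tg and was not called (log2 fold change -1.12 ± 0.57, adjusted p = 0.176).

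The multiplexins, types XV and XVIII, carry the anti-angiogenic endostatin-type domains and did not pass the test. Col18a1 was counted at 11710 to 25550 (median 22630) in male WT, 18390 to 30250 (median 25710) in male SIRT6-tg, 18160 to 26430 (median 23710) in female WT and 16950 to 28180 (median 25230) in female SIRT6-tg. The groups overlapped, and 1 male WT liver, number 6, lay far under the rest. Its log2 fold change in males was 0.21 ± 0.13, with a 95% interval of -0.07 to 0.48 and an adjusted p of 0.304, so a fall of the size of Col4a1's lies outside the interval, although the sign turned to -0.06 with library size as the only scale. Col15a1 (chr4:47208161-47313167) was at 72.8 to 191 (median 149.5) in male WT and 115.5 to 215 (median 177) in male SIRT6-tg, with a log2 fold change of 0.23 ± 0.26 that became -0.04 with library size alone.

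Type VI collagen, which links cells to the surrounding fibrils, fell through each of its 3 main chains. Col6a1 (chr10:76708792-76726168) was counted at 263 to 442 (median 381) in male WT and 154 to 210.1 (median 176) in male SIRT6-tg (log2 fold change -1.06 ± 0.15, adjusted p = 3.2e-06). Col6a2 (chr10:76595762-76623630), its neighbour on the same chromosome, was at 200.4 to 325 (median 249) and 96.2 to 130.4 (median 101.5) (log2 fold change -1.28 ± 0.18, adjusted p = 4.93e-06). Col6a3 (chr1:90765923-90843971), the longest of the chains, was at 232 to 368 (median 274) and 87.3 to 117 (median 105) and was 2.93-fold lower (log2 fold change -1.55 ± 0.15, adjusted p = 1.66e-08). No male SIRT6-tg liver reached the male WT range in any of the 3. Of the further type VI chains, Col6a5 fell (log2 fold change -1.65 ± 0.56, adjusted p = 0.0331) on low counts of 2.24 to 35.05 in male WT and 0.9955 to 7.64 in male SIRT6-tg. That call was lost without male WT 2, 3 or 4 or without male SIRT6-tg 4, 5 or 6, where the adjusted p of edgeR's test rose above 0.05. Col6a6 at 7.84 to 34.3 and 7.04 to 13.4 was not called (log2 fold change -0.61 ± 0.42, adjusted p = 0.334), and Col6a4, listed at 0 in 9 of the 14 male libraries, was not called either (log2 fold change -2.14 ± 0.97, adjusted p = 0.121).

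Among the fibril-associated chains, which decorate fibrils without forming them, 2 of 7 tested fell in males. Col14a1 (chr15:55307750-55520803), the most abundant collagen transcript per kb after Col18a1, was counted at 1706 to 2516 (median 1783) in male WT and 963.5 to 1477 (median 1329) in male SIRT6-tg and was 1.52-fold lower (log2 fold change -0.61 ± 0.13, adjusted p = 0.000885). Col16a1 (chr4:130047840-130099283) was at 85.8 to 171 (median 129.6) and 60.8 to 78.9 (median 76.4) (log2 fold change -0.82 ± 0.17, adjusted p = 0.000685). Both genes separated the male groups. Col12a1, the close relative of Col14a1, did not: its ranges were 46.95 to 85.3 and 46.4 to 79.7, with a log2 fold change of -0.04 ± 0.23 and a 95% interval of -0.51 to 0.43. Col20a1, Col9a3, Col9a2 and Col22a1 were not called, with log2 fold changes of 0.14, -0.34, -0.07 and -1.28 and, for the last pair, counts near 0.

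The remaining chains were not called, with 1 exception. The transmembrane chain Col13a1, found at cell contacts, was at 111.5 to 190.2 (median 151) in male WT and 120.5 to 216 (median 148) in male SIRT6-tg (log2 fold change 0.03 ± 0.18, 95% interval -0.33 to 0.40). The other transmembrane chains Col17a1, Col23a1 and Col25a1, the short-chain network chains Col8a1, Col8a2 and Col10a1 and the anchoring-fibril chain Col7a1 were not called, at log2 fold changes between -0.94 for Col8a2 and 0.72 for Col17a1. Col28a1, a chain best known from peripheral nerve, had 12 reads over the 7 male WT libraries, up to 5.31 normalized counts, and 0 reads in the 7 male SIRT6-tg libraries. With 3 reads over the group as the limit that a count of 0 allows, it was at least 3.27-fold lower. Its call (adjusted p = 0.037) was lost in DESeq2, with a stricter filter on low counts, with the replicate block, with the male groups fitted separately and without several single libraries. The class medians were the same with Col28a1 at that bound.

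**Figure D3:**
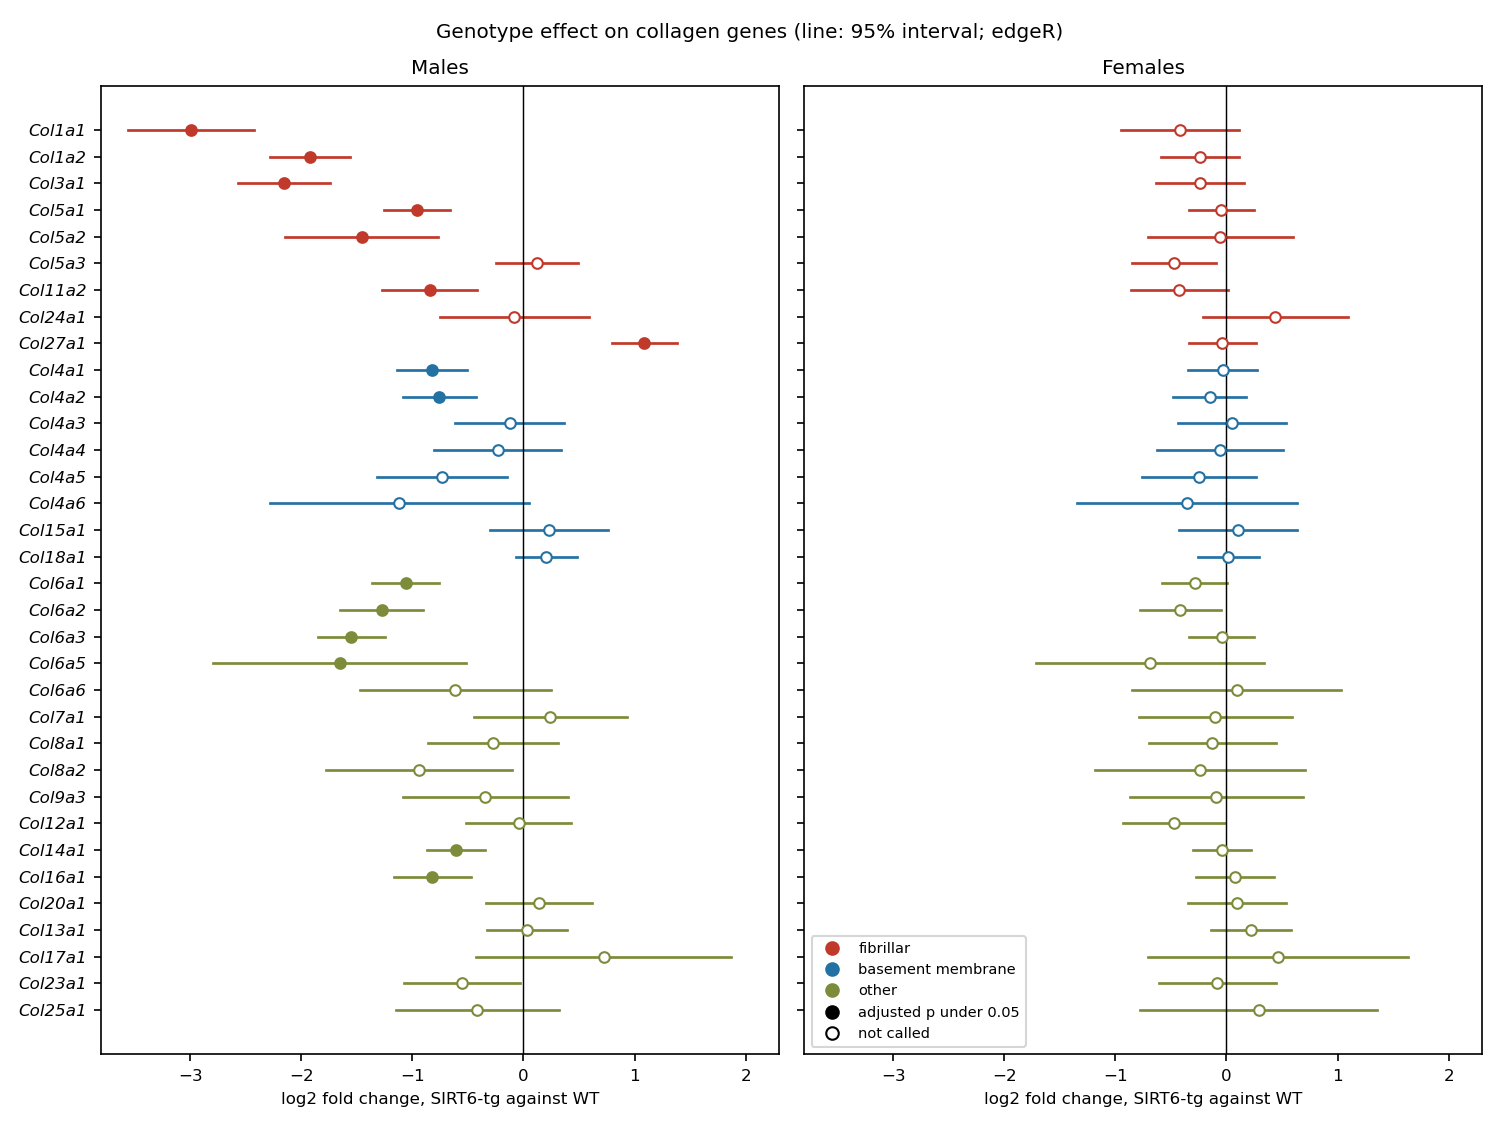
Log2 fold changes of SIRT6-tg against WT for 34 of the 39 tested collagen genes, males on the left and females on the right, with 95% intervals from edgeR; filled points are called at an adjusted p under 0.05, and colours give the class. The 5 genes not drawn, Col6a4, Col10a1, Col9a2, Col22a1 and Col28a1, had standard errors above 0.7 or a group at 0; filled points in males reach -2.99 at Col1a1, and no point in females is filled.

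In females, 0 of the 39 collagen genes were called, in a comparison in which edgeR called 6 of 21583 genes, or 0.0278%, and DESeq2 called 44 genes, with 0 collagen genes among them. At an unadjusted p under 0.05 stood 3 collagen genes, against 5.62% of all genes tested, a share too near to read a result from. They were Col5a3 (log2 fold change -0.47 ± 0.19, adjusted p = 0.696), Col6a2 (log2 fold change -0.41 ± 0.18, adjusted p = 0.784) and Col12a1 (log2 fold change -0.47 ± 0.23, adjusted p = 0.856). 0 collagen genes separated the female groups, where 0.0834% of all genes tested did. The median log2 fold change of the 39 was -0.08, with -0.24 in the fibrillar class, -0.05 in the basement membrane class and -0.09 in the others. The female estimates of the chains that fell most in males were -0.42 ± 0.26 for Col1a1, with a 95% interval of -0.95 to 0.11, -0.24 ± 0.17 for Col1a2 and -0.24 ± 0.20 for Col3a1, with an interval of -0.64 to 0.16. These intervals allow a moderate fall in females and lie wholly above the male estimates. For Col27a1 the female estimate was -0.04 ± 0.15, with an interval of -0.34 to 0.26. That of Col5a2, -0.06 ± 0.32, rested on female WT 1, and became 0.51 without it and the 2 male libraries that stood apart.

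The genotype effect differed between the sexes in 10 collagen genes by the interaction term of the same fit, more negative in males in 9 and more positive in 1, where 3.84% and 1.20% of all genes tested differed in these directions. The differences of the effects on the log2 scale were -2.57 ± 0.37 for Col1a1 (adjusted p = 0.000142), -1.92 ± 0.28 for Col3a1 (adjusted p = 0.000142), -1.68 ± 0.24 for Col1a2 (adjusted p = 0.000142) and -1.51 ± 0.20 for Col6a3 (adjusted p = 0.000107). Smaller ones were found for Col5a1 (-0.91), Col16a1 (-0.90), Col6a2 (-0.86), Col4a1 (-0.79) and Col6a1 (-0.77). The call of Col6a2 (adjusted p = 0.0421) was lost in 16 of the 28 fits without 1 library, and that of Col4a1 (adjusted p = 0.0284) in 3. Col27a1 differed in the other direction, by 1.12 ± 0.21 (adjusted p = 0.00141). The fibrillar class held 5 of the 10 calls, with a median difference of -0.91, and the basement membrane class 1, with a median of -0.33. Of the genes that fell in males, Col5a2, Col4a2, Col14a1, Col11a2, Col6a5 and Col28a1 did not pass this test, so a difference between the sexes is not shown for them. Col14a1 passed, though, with RLE size factors, upper-quartile scaling, library size alone, the stricter filterByExpr filter and DESeq2, and without female WT 6, female WT 7 or female SIRT6-tg 2. Col5a2 passed with library size alone, in DESeq2, with the replicate block, without female WT 1 and without the 3 WT libraries that stood apart, with 11 genes then called, and Col4a2 passed with library size alone. Sirt6 was also higher in male than in female SIRT6-tg livers, and the part of that in these differences was not tested.

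Among WT livers, 10 collagen genes were higher in males and 3 higher in females, against 6.65% and 5.71% of all genes tested, and the median log2 difference of the collagen genes, male minus female, was 0.20. Type I, III and XXVII chains stood 3.18-fold (Col1a1, log2 difference 1.67 ± 0.26, adjusted p = 4.3e-05), 2.21-fold (Col1a2), 2.15-fold (Col3a1) and 2.12-fold (Col27a1) higher in males. Col5a3, at 205 to 444 (median 329.5) in female WT, was 3.03-fold higher in male WT (log2 difference 1.60 ± 0.19, adjusted p = 3.9e-07) and its sexes did not overlap. Col25a1, a transmembrane chain of neurons, showed the largest ratio, with 10.1 to 52.6 (median 25.7) normalized counts in male WT and 1.07 to 7.76 (median 4.87) in female WT (log2 difference 2.83 ± 0.44, adjusted p = 3.36e-05). Col4a1, Col4a2, Col6a3 and Col16a1 were higher in males by 0.70, 0.65, 0.67 and 0.60 on the log2 scale. Higher in females were Col4a5, at 32.6 to 126 (median 73.85) (log2 difference -1.26 ± 0.26, adjusted p = 0.00126), Col20a1 (log2 difference -0.94 ± 0.23, adjusted p = 0.00482) and Col12a1 (log2 difference -0.74 ± 0.23, adjusted p = 0.0265). Without the 3 WT libraries that stood apart 15 genes were called: Col12a1 was lost, and Col5a1, Col6a6 and Col8a2 were gained.

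Between SIRT6-tg males and SIRT6-tg females, 3 collagen genes were higher in males and 11 higher in females, against 12.9% and 10.2% of all genes tested. The median log2 difference, male minus female, was -0.20, and -0.54 in the fibrillar class, where it was 1.08 in WT. The sign of male minus female differed between WT and SIRT6-tg in 17 of the 39 chains, with a call in both for 4 of them, while 5 were called in both in the same direction. The same counts were not made over all genes tested, so they are not read as particular to collagen genes. Col1a1, Col1a2 and Col3a1, higher in males among WT mice, were lower in males among SIRT6-tg mice, by -0.90, -0.54 and -0.81 on the log2 scale. Col6a3 turned in the same manner (log2 difference -0.84 ± 0.15, adjusted p = 0.00012). Col5a2 was 2.95-fold lower in males (log2 difference -1.56 ± 0.34, adjusted p = 0.00134), and Col5a1, Col6a1, Col6a2 and Col14a1 were lower by -0.52, -0.64, -0.66 and -0.46. The genes that kept a male excess were Col27a1, now 4.62-fold higher (log2 difference 2.21 ± 0.15, adjusted p = 2.36e-12), Col5a3, 4.59-fold higher (log2 difference 2.20 ± 0.19, adjusted p = 6.3e-10), and Col25a1 (log2 difference 2.12 ± 0.43, adjusted p = 0.000663). Col4a5 (log2 difference -1.75 ± 0.28, adjusted p = 3.51e-05) and Col20a1 (log2 difference -0.90 ± 0.23, adjusted p = 0.00435) remained higher in females. The male and female comparisons between WT and SIRT6-tg use the same libraries as the 2 comparisons between the sexes, so the turn of sign in these chains restates the interaction. Without the 3 WT libraries, 14 genes were called.

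Ratios of 2 genes within a library do not depend on the scaling between libraries, and 14 of them were compared in each sex by exact permutation of the 7 WT and 7 SIRT6-tg libraries, two-sided, with p-values adjusted over the 28 tests. The composition of the fibrillar transcripts differed between the male genotypes. Col1a1 reads per Col1a2 read went from 0.520 to 0.860 (median 0.701) in male WT and from 0.186 to 0.402 (median 0.350) in male SIRT6-tg, a 2.08-fold lower ratio. Col3a1 per Col1a1 was 2.54 to 3.55 in male WT and 4.11 to 6.69 in male SIRT6-tg, and Col5a1 per Col1a1 was 0.359 to 0.746 and 1.37 to 2.25, a 3.99-fold higher ratio. Thus Col1a1 stood lower in male SIRT6-tg livers relative to each of the other fibril chains with which it was paired. All 3 ratios separated the male groups and had an exact permutation p of 0.000583, the smallest that these 14 libraries can give (adjusted p = 0.00233). Col3a1 per Col1a2 was not called, at 1.35 to 2.69 and 1.24 to 2.17 (exact p = 0.181, adjusted p = 0.362). Col5a2 per Col3a1 was 1.56-fold higher in male SIRT6-tg (exact permutation p = 0.00583, adjusted p = 0.0163).

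Col1a1 and Col3a1, the only fibrillar chains so compared, also fell relative to the type IV chain Col4a1 and to the stellate cell gene Lrat. Lrat encodes lecithin retinol acyltransferase, the enzyme of retinoid storage. Col1a1 per Col4a1 was 0.368 to 0.765 in male WT and 0.104 to 0.160 in male SIRT6-tg, 4.44-fold lower, and Col3a1 per Col4a1 was 2.49-fold lower. Col1a1 per Lrat was 0.361 to 1.22 in male WT and 0.104 to 0.250 in male SIRT6-tg, 4.86-fold lower, and Col3a1 per Lrat was 2.72-fold lower. Each of these 4 had the smallest exact permutation p of 0.000583 and separated the male groups. Col4a1 per Lrat was not called, with 0.981 to 2.15 in male WT and 1.00 to 2.07 in male SIRT6-tg (exact permutation p = 0.545), and neither was Col4a1 per Col4a2, with 1.46 to 2.11 and 1.26 to 2.12 (exact permutation p = 0.744). Col18a1 per Col4a1 was 2.04-fold higher in male SIRT6-tg (exact permutation p = 0.00117, adjusted p = 0.00408). Within type VI, Col6a3 per Col6a1 was 1.41-fold lower (exact permutation p = 0.00466, adjusted p = 0.0145) and Col6a1 per Col6a2 1.16-fold higher (exact permutation p = 0.0128, adjusted p = 0.0326). In females 0 of the 14 ratios were called, and the lowest raw value was that of Col6a3 per Col6a1 (exact permutation p = 0.0548, adjusted p = 0.128).

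**Figure D4:**
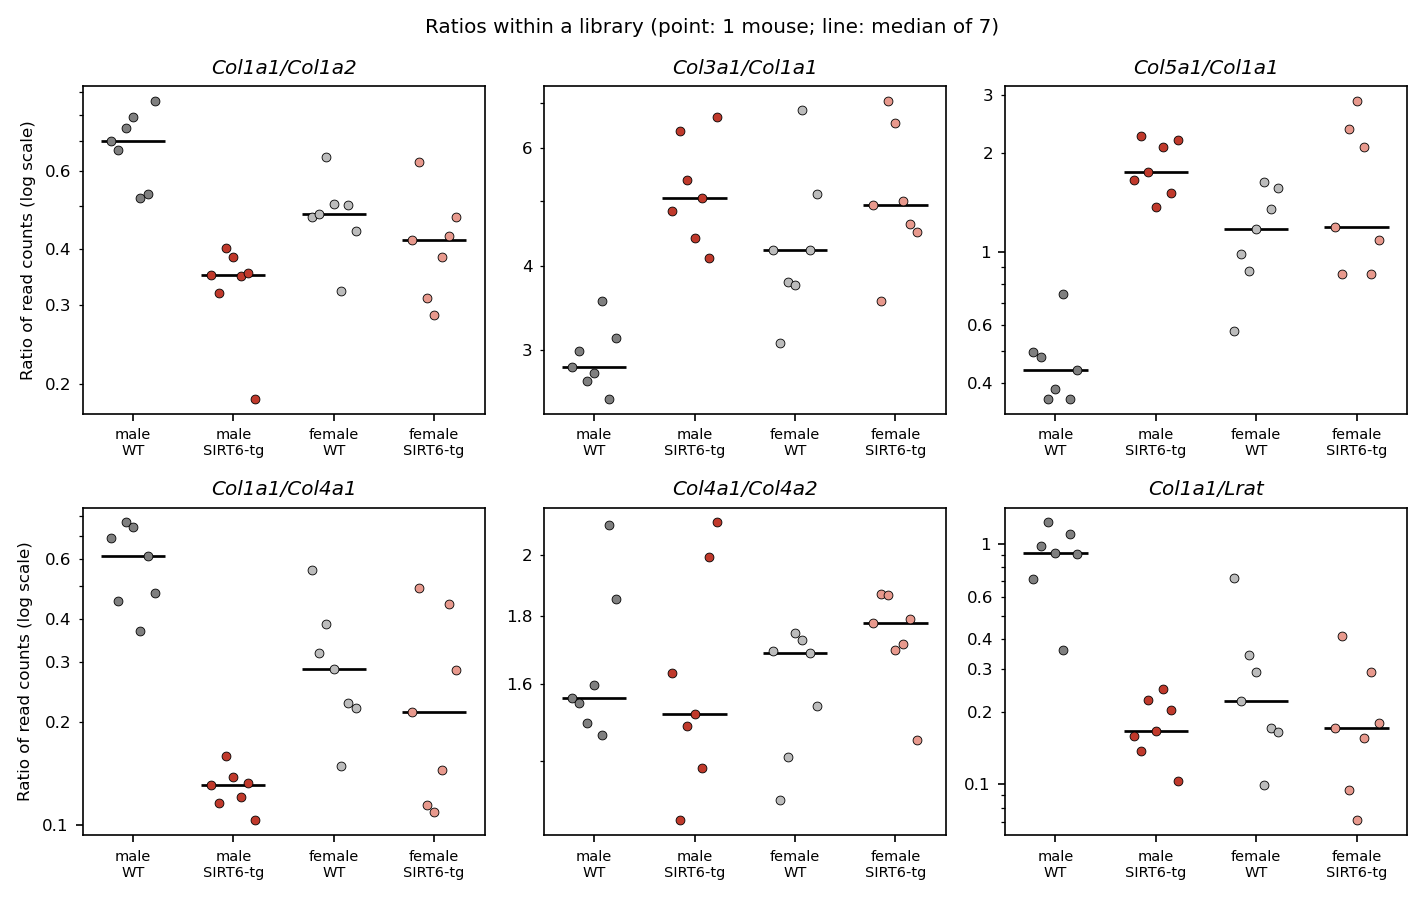
Ratios of read counts of 2 genes within each library on a log scale, 1 point per mouse and a line at the median of 7. The male WT and male SIRT6-tg points are apart for Col1a1/Col1a2, Col3a1/Col1a1, Col5a1/Col1a1, Col1a1/Col4a1 and Col1a1/Lrat and overlap for Col4a1/Col4a2 (medians 1.56 and 1.52), and the female groups overlap in all 6 panels.

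Within male WT and within female SIRT6-tg, livers that had more Col1a1 also had more Col3a1. This comparison was added after seeing the data and made over the 7 libraries of each group, with 5 genes and 4 groups, or 20 relations, in the family. Pearson's r was taken on log2 normalized counts, with a prior count of 2. In male WT r was 0.97 (exact permutation p = 0.00278, adjusted p = 0.0265). Spearman's rho there was 0.93 (exact permutation p = 0.00675, adjusted p = 0.045). Without the 2 libraries farthest from the Col1a1 median, r in male WT was 0.90. In female SIRT6-tg r was 0.93 (exact permutation p = 0.00397, adjusted p = 0.0265), or 0.83 without 2. Its rho was 0.93 (exact permutation p = 0.00675, adjusted p = 0.045). In male SIRT6-tg and female WT, r was 0.72 and 0.78 and did not pass the adjustment. Col1a2 followed Col1a1 in female WT, with r of 0.87 (exact permutation p = 0.00397, adjusted p = 0.0265) and rho of 0.93, and in female SIRT6-tg, with r of 0.86 (exact permutation p = 0.0107, adjusted p = 0.046), a rho that did not pass (adjusted p = 0.12) and r of 0.62 without 2, but in male WT its r of 0.90 dropped to 0.19 without the 2 farthest libraries and so rested on them. Col4a1 had an r of 0.88 in male SIRT6-tg (exact permutation p = 0.0115, adjusted p = 0.046), with a rho that did not pass (adjusted p = 0.12), and an r of -0.76 in female SIRT6-tg (exact permutation p = 0.0373, adjusted p = 0.0932). Without the 2 farthest libraries these r values were 0.64 and -0.9955, and that of Col1a2 in female WT was 0.85. No relation with Col18a1 or Col27a1 passed in any group, with r between -0.46 and 0.75.

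Genes that make, cut, cross-link and sense collagen were read from lists, each against the 11.0% of all genes called lower and 9.68% called higher in males. Of 21 prolyl and lysyl hydroxylases, glycosyltransferases and chaperones, 6 fell and 2 rose. Serpinh1, the collagen-specific chaperone HSP47, was at 467 ± 178 in male WT and 258 ± 68.4 in male SIRT6-tg (SD, n = 7 each) normalized counts (log2 fold change -0.86 ± 0.19, adjusted p = 0.00119). Sparc, which binds collagen outside the cell, and the prolyl 3-hydroxylase P3h3 also fell, by log2 fold changes of -0.70 and -0.66. P4hb, protein disulfide isomerase and the β subunit of prolyl 4-hydroxylase, rose (log2 fold change 0.31 ± 0.08, adjusted p = 0.00761), as did the galactosyltransferase Colgalt2 (log2 fold change 0.85). Of 8 procollagen-processing genes tested, 3 fell and 1 rose. Adamts2, the N-proteinase of types I and III, was at 216 ± 55.3 in male WT and 76.9 ± 11.65 in male SIRT6-tg (log2 fold change -1.49 ± 0.16, adjusted p = 8.19e-08), Pcolce, the enhancer of the C-proteinase, and Adamts14 fell by -0.85 and -0.91, and Bmp1, the C-proteinase itself, rose (log2 fold change 0.29 ± 0.10, adjusted p = 0.0368).

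All but 1 of the 6 cross-linking genes fell in males and 0 rose. Lox, lysyl oxidase, was at 19.65 ± 9.94 in male WT and 3.86 ± 2.26 in male SIRT6-tg (log2 fold change -2.32 ± 0.40, adjusted p = 8.17e-05), and the related Loxl1 and Loxl2 fell by log2 fold changes of -1.87 and -1.24. Fibril-associated matrix genes fell in 20 of 26 and rose in 0, among them Tnc, encoding tenascin-C (log2 fold change -2.20 ± 0.21, adjusted p = 2.36e-08), Eln, encoding elastin (log2 fold change -1.92 ± 0.23, adjusted p = 2.81e-07), and the fibrillin gene Fbn1 (log2 fold change -1.41 ± 0.19, adjusted p = 1.55e-06). The list's summed count, which its most abundant genes set, overlapped between male WT (31280 to 53160) and male SIRT6-tg (32210 to 50620). Among 16 other basement membrane genes, laminins and nidogens included, 3 fell and 1 rose. Those were Lama2 (log2 fold change -1.29), Nid1 (-0.83) and Lamb1 (-0.34), and Lamb3 (0.58), and 9 fell or rose with library size alone.

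Degradation genes fell too: 10 of 17 tested fell and 0 rose. Mmp12, macrophage elastase, was at 321.5 ± 207 in male WT and 10.4 ± 2.24 in male SIRT6-tg (log2 fold change -4.94 ± 0.52, adjusted p = 1.05e-07), and Mmp2, a gelatinase, and Mrc2, the receptor that takes up collagen fragments, fell by log2 fold changes of -1.44 and -1.53. Of 11 collagen receptors 6 fell and 0 rose: Lair1, an inhibitory receptor of leukocytes (log2 fold change -1.62 ± 0.23, adjusted p = 4.46e-06), and the discoidin domain receptors Ddr1 (-1.14) and Ddr2 (-0.83) among them. In the TGF-beta signalling list 11 of 24 fell and 0 rose, led by the latent TGF-beta binding proteins Ltbp2 (log2 fold change -2.05 ± 0.24, adjusted p = 2.58e-07) and Ltbp1 (-0.999) and by Pdgfb (-1.35), a growth factor for stellate cells. In females 0 genes of any of these lists were called, where 0.0278% of all genes tested were. By the interaction, the effect was more negative in males for 4 of 6 cross-linking genes, 9 of 26 matrix genes, 5 of 17 degradation genes, 3 of 8 processing genes, 3 of 24 TGF-beta genes, 2 of 11 receptors, 2 of 21 hydroxylases and chaperones and 1 of 16 other basement membrane genes, and more positive for 2 hydroxylases or chaperones alone, where 3.84% and 1.20% of all genes tested differed in these directions.

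Markers of the cells that could supply the collagen transcripts moved as well in males, and their part in the collagen differences was not tested. Over all genes tested in males, 11.0% were called lower and 9.68% higher. Of 18 hepatic stellate cell markers 8 fell and 0 rose: Pdgfrb (log2 fold change -0.72 ± 0.11, adjusted p = 2.1e-05), Pdgfra (-0.72) and Cygb (-0.87) are named by lowest p, and Lrat was at 802 ± 184 in male WT and 501 ± 92.2 in male SIRT6-tg. The summed stellate list ran from 9887 to 14380 in male WT and from 9509 to 11620 in male SIRT6-tg, and from 10010 to 13970 and 8875 to 14660 in female WT and SIRT6-tg. All 4 defining markers, Lrat, Des, Reln and Hand2, were counted in every library. Of 11 portal fibroblast markers 7 fell, such as Thy1 (log2 fold change -1.55 ± 0.22, adjusted p = 5.87e-06), Cd34 (-1.22) and Slit3 (-2.71), and 1, Gas1, rose (0.51), with sums of 778 to 1626 in male WT and 828 to 1122 in male SIRT6-tg. Of 10 contractile myofibroblast markers 3 fell, Myh11 (log2 fold change -1.45 ± 0.41, adjusted p = 0.0116), Actg2 (-2.48) and Acta2 (-1.74), with sums of 9557 to 14670 and 11400 to 19100. These falls had log2 fold changes closer to 0 than that of Col1a1 (-2.99) in all the stromal markers named here. Those of Slit3 and Actg2 were further from 0 than those of Col3a1 (-2.16) and Col1a2 (-1.92).

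Leukocyte markers fell too. In males 12 of 13 macrophage markers fell, with Itgax (log2 fold change -3.09 ± 0.26, adjusted p = 5.16e-09), Cx3cr1 (-2.24) and Ccr2 (-2.34) lowest in p, and the list summed to 13440 to 36780 in male WT and 9075 to 14920 in male SIRT6-tg. Of 12 T cell markers 11 fell, led by Cd8a (log2 fold change -3.67 ± 0.31, adjusted p = 5.85e-09), Cd3e (-2.56) and Cd3g (-2.38), with sums of 827 to 2266 and 470.2 to 1304. In females these lists summed to 13160 to 24440 (macrophage) and 485 to 1419 (T cell) in WT and 9982 to 23140 and 615 to 1160 in SIRT6-tg. There 0 of these markers were called, in a comparison in which 0.0278% of all genes tested were. Hepatocyte markers rose in 6 of 15 and fell in 0, with Fgb (log2 fold change 0.40 ± 0.11, adjusted p = 0.00973), Apoa2 (0.74) and Ass1 (0.40) lowest in p, and they summed to 3070000 to 4152000 in male WT and 3833000 to 5218000 in male SIRT6-tg. Only Pecam1 (-0.37) of 12 sinusoidal endothelial markers fell, with sums of 10720 to 13820 and 10260 to 13120, and 0 of 8 cholangiocyte markers (1122 to 2504 and 1154 to 1760) and 0 of 5 mesothelial markers tested (54.9 to 271 and 31.7 to 141) were called, where edgeR gave an unadjusted p under 0.05 to 1 gene in each of these lists. Genes of tissues that can adhere to a liver sample also stood lower in male SIRT6-tg. Of 5 adipose genes tested 1 fell, Plin1 (-4.26), with 3 at an unadjusted p under 0.05 and a list median of -3.19 on the log2 scale. Of 8 pancreatic genes 2 fell and 1 rose, with 6 at an unadjusted p under 0.05 and a list median of -2.52, or -2.41 with the genes at 0 at their bound. Those that fell were Ctrb1 (-4.34) and Cela3b, and Cela1 rose (0.75). Cela3b had 23 reads in male WT and 0 in male SIRT6-tg. Male WT 3 held 22 of the 23, so no fold between the genotypes is read from them. Both medians rested on male WT 3: without it 3 genes of each list passed the filter, at medians of 0.52 and 0.16, and 0 of them were called by edgeR, with 1, Cela1, at an unadjusted p under 0.05. The sums of the lists were set by Cidec and Cela1 and ran from 62.9 to 343 (adipose) and 325 to 819 (pancreas) in male WT and from 113 to 255 and 612.5 to 1597 in male SIRT6-tg. Alas2 (0.42) of 7 red blood cell genes rose. Over all genes tested in males, 11.0% were called lower and 9.68% higher. Single calls in the endothelial, adipose and red blood cell lists are therefore not read as a result about those cells.

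**Figure D5:**
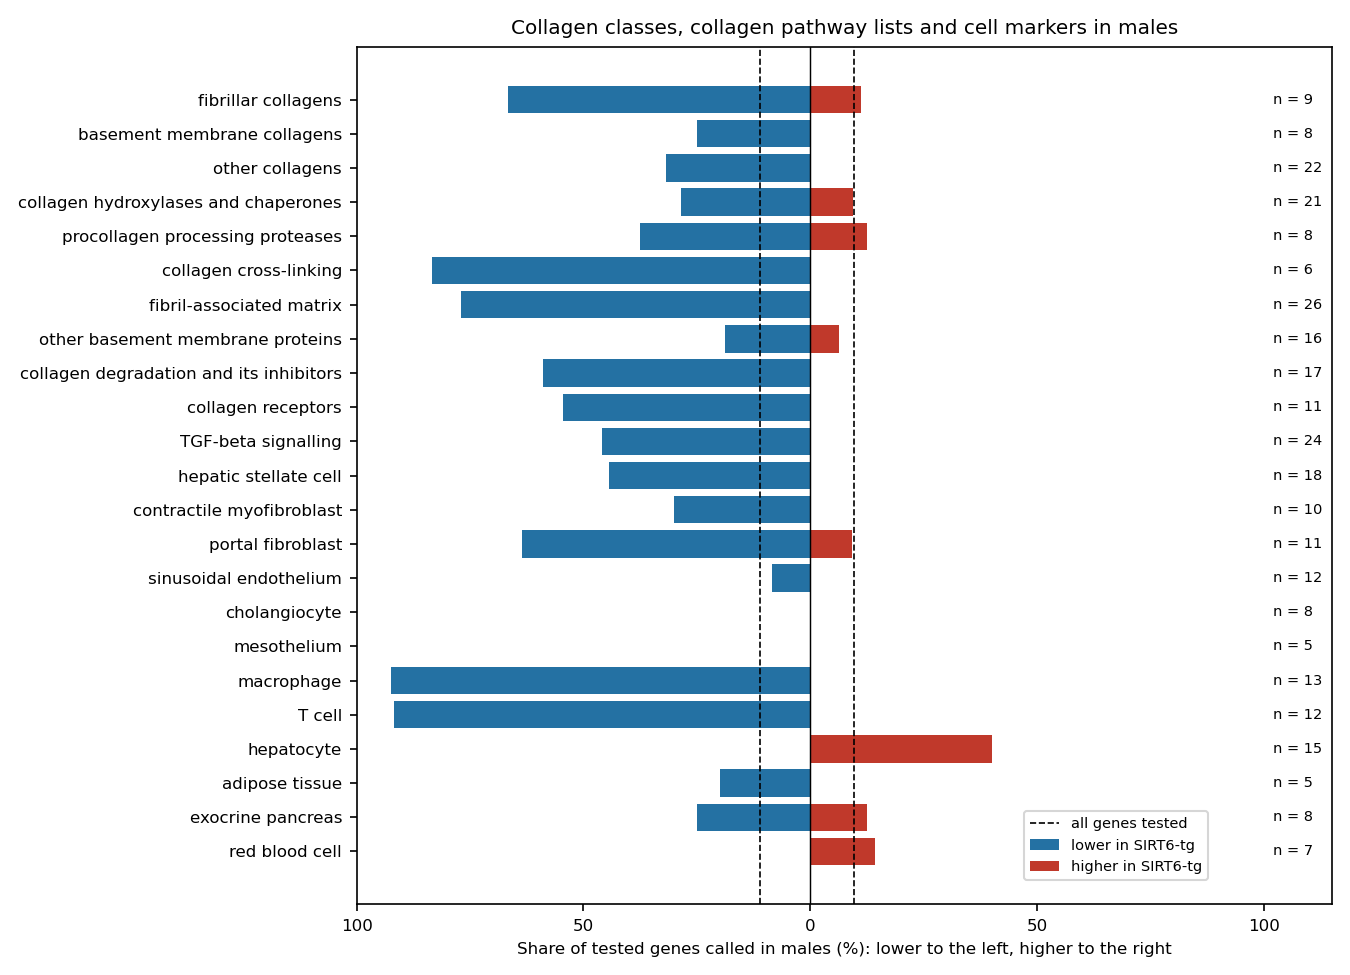
Share of the tested genes of each collagen class, collagen pathway list and cell marker list called lower (left) or higher (right) in male SIRT6-tg livers, in percent, with the number tested at the right edge. Dashed lines give the shares over all genes tested, 11.0% lower and 9.68% higher; fibrillar collagens, cross-linking, fibril-associated matrix, macrophage and T cell lists reach furthest to the left, and hepatocyte markers furthest to the right.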

How the data were processed

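Liver RNA from 28 mice (7 of each sex and genotype, grouped by the labels) was sequenced single-end by the authors after a library preparation that keeps no strand. The authors aligned reads with STAR 2.5.0a to mm10 (GRCm38) with a Gencode annotation and counted uniquely mapped reads per gene with HTSeq, whose strand setting is not given in the sources used here; the deposited values are raw counts. Symbols, positions and exon lengths came from a Gencode annotation of GRCm38, which gave a symbol to 49326 of 49585 entries, 43749 of them by the same versioned identifier, and to the 44 collagen genes, 34 by versioned identifier.

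Totals were 18758863 to 35393069 counts per library, and limits from a count of 0 cover counting error only, while 95% intervals of log2 fold changes are those of the fit over mice. Libraries of a group differed beyond sampling noise (lowest chi-square per gene 13.25). Genes with a mean normalized count of at least 0.5 were tested in edgeR 4.0.16 (R 4.3.3) with TMM scaling and the robust quasi-likelihood F-test over 4 groups, with Benjamini-Hochberg adjustment over all 21583 genes and a threshold of 0.05; errors of log2 fold changes are standard errors. DESeq2 1.42.0, the study's tool, was an alternative. Ratios (0.5 added to each count) were tested by exact permutation in SciPy 1.17.1. Other alternatives changed the scaling, the filter or the fitted groups, added the replicate number as a block, or left out each library in turn. Tests were checked on simulated counts.

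The collagen genes, classes, pathway and marker lists were chosen with earlier results of these data known. Full values are given for 12 chains and for up to 5 with the lowest adjusted p per comparison, and up to 3 genes per list and direction are named by lowest adjusted p in males. The correlations with Col1a1 and the fit without 3 libraries were added after seeing the data. Mice are separate animals, but nothing states whether libraries were prepared in batches.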

Additional observations from a re-analysis of the deposited data

Results flagged for a closer look

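In 16 of 156 groups of 7 libraries, 1 library lay so far from the nearest other that the gap, as a share of the group's range, exceeded Dixon's 95% critical value. Chance gives about 1 in 20 for normally distributed values. Some groups were almost all at 0, such as Col22a1 in female WT and Col28a1 in female SIRT6-tg, so 16 of 156 is not read as an excess. Leaving aside chains at a few counts, these were male WT 5 for Col1a1 (298.7 normalized counts) and Col1a2 (574.7), female WT 1 for Col1a2 (795.0) and Col5a2 (478.9), male WT 6 for Col15a1 (72.76) and Col18a1 (11710), male SIRT6-tg 6 for Col27a1 (651.1, low) and Col6a2 (130.4, high), male SIRT6-tg 7 for Col4a2 (246.5) and male SIRT6-tg 5 for Col11a2 (29.87). Among chains at a few counts they were Col9a2 in male WT 6 (3.358), Col9a3 in female WT 4 (2.218) and in female SIRT6-tg 7 (0), Col22a1 in female WT 2 (2.04), Col25a1 in female SIRT6-tg 6 (1.281) and Col28a1 in female SIRT6-tg 3 (2.212).

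The genotype effect differed between the sexes, by the interaction term of edgeR's quasi-likelihood test, in 10 chains. The differences, male minus female on the log2 scale, were -2.57 for Col1a1, -1.68 for Col1a2 and -1.92 for Col3a1 (each adjusted p = 0.000142), -1.51 for Col6a3 (adjusted p = 0.000107), -0.91 for Col5a1 (adjusted p = 0.00663), -0.79 for Col4a1 (adjusted p = 0.0284), -0.77 for Col6a1 (adjusted p = 0.0228), -0.86 for Col6a2 (adjusted p = 0.0421), -0.90 for Col16a1 (adjusted p = 0.0242) and 1.12 for Col27a1 (adjusted p = 0.00141).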

How the results depend on the processing

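The number of collagen genes called stayed within 1.5 times of its main value under every alternative run. Over the fits that left out 1 library it was 14 to 17 in males, 0 to 0 in females, 8 to 11 for the interaction, 12 to 15 between WT sexes and 13 to 14 between SIRT6-tg sexes. Deviations of same-numbered male libraries correlated at -0.118 to 0.229, with 0 of 7 correlating best with their own number. Female ones correlated at -0.283 to 0.271, with 1 of 7. These values do not show that replicate numbers pair the mice, and they cannot exclude it, since effects of litter or cage may be small. The study states that littermates were compared and that the genotypes shared cages, but the labels give no litter or cage. With the replicate block 16, 0, 11, 13 and 14 genes were called in these comparisons, and the ratio Col5a2/Col3a1 in males (0.64) was no longer called. Of the interaction calls, Col6a2 was lost in 16 fits without 1 library and Col4a1 in 3 (without male WT 7, female SIRT6-tg 4 or female SIRT6-tg 5).

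The scaling mattered most for all genes: higher and lower calls in males were 2090 and 2377 with TMM, 1395 and 2511 with RLE size factors, 942 and 2649 with upper-quartile scaling, 210 and 4084 with library size alone, 1789 and 2631 in DESeq2 and 990 and 2588 with the pair fitted separately. Between WT sexes library size alone gave 3657 and 555 against 1436 and 1233, between SIRT6-tg sexes upper-quartile scaling gave 1961 and 3041 and library size alone 1896 and 2964 against 2787 and 2201, and for the interaction library size alone gave 26 and 1837, upper-quartile scaling 117 and 966, RLE size factors 149 and 901 and no filter 130 and 726 against 260 and 829. With library size alone the male medians were -1.23 (fibrillar) and -0.75 (basement membrane), and the fibrillar interaction median -1.19. List calls under that scale were 9 for other basement membrane genes in males (4 with TMM, 7 with the pair fitted separately), and for the interaction 18 matrix genes (9), 4 basement membrane genes (1, and 0 with no filter or the block), 4 receptors (2) and 10 TGF-beta genes (3, and 6 in DESeq2); with no filter 2 hydroxylases or chaperones (4) differed.

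Signs of effects near 0 turned, and the cause was not tested. With library size alone, Col15a1 (-0.0405), Col18a1 (-0.0615) and Col5a3 (-0.14) turned in males, Col15a1 (-0.15) and Col18a1 (-0.0915) in the interaction, Col5a2 (0.0710) and Col18a1 (0.0606) between WT sexes, and Col4a2 (-0.0563) and Col18a1 (-0.0309) between SIRT6-tg sexes; with upper-quartile scaling Col4a2 (-0.0388) and Col18a1 (-0.0085) in the last. The block turned Col5a2 in females (0.10) and between WT sexes (0.0151). Without male WT 5, male WT 6 and female WT 1, Col5a2 (0.51), Col15a1 (-0.0065) and Col18a1 (-0.0407) turned in females, and Col5a2 (0.49) between WT sexes. Over fits without 1 library, signs turned in females for Col15a1 (-0.12 to 0.31), Col18a1 (-0.0407 to 0.0838), Col27a1 (-0.0967 to 0.0291), Col4a1 (-0.11 to 0.0374), Col5a1 (-0.12 to 0.0147), Col5a2 (-0.26 to 0.51) and Col6a3 (-0.12 to 0.0650), between WT sexes for Col5a2 (-0.29 to 0.42), between SIRT6-tg sexes for Col15a1 (-0.23 to 0.11), Col18a1 (-0.0009 to 0.13) and Col4a2 (-0.0447 to 0.14), and in the interaction for Col15a1 (-0.0880 to 0.35). Log2 ratios that turned were Col18a1/Col4a1 (-0.0419 to 0.16), Col3a1/Col1a2 (-0.0621 to 0.0577) and Col3a1/Col4a1 (-0.29 to 0.0157) in females and Col4a1/Col4a2 (-0.11 to 0.0182) in males.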
